A study of Mus musculus with 7 samples.

Results

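Asporin (Aspn) and biglycan (Bgn), proteoglycans of the collagen matrix, were higher in the soleus of Yy1 knockout mice than in that of wild type mice, by 4.45-fold (95% interval 2.94 to 6.74) and 2.12-fold (1.58 to 2.84), over 3 wild type and 4 knockout arrays. Scleraxis (Scx) and dermatopontin (Dpt) were higher by 1.67-fold and 1.38-fold, while decorin (Dcn), lumican (Lum) and osteoglycin (Ogn) did not pass the test. The account covers 10 genes of 12393 measured: the small leucine-rich proteoglycans Dcn, Bgn, Lum, Fmod, Kera, Ogn, Aspn and Prelp, with Scx, a transcription factor of tendon cells, and Dpt, a matrix protein that binds decorin. They were chosen by name, with earlier results of these data known. A probe set is a group of short DNA probes against a transcript, and every probe set whose platform annotation named exactly 1 gene, and that gene among the 10, was taken. This gave 20 probe sets of 22690 on the array: 6 for Fmod, 3 for Bgn, 2 each for Ogn, Aspn and Prelp, and 1 each for Dcn, Lum, Kera, Scx and Dpt. Probe sets of 1 gene read the same transcripts and are not replicates, and the endings _s_at and _x_at mark sets whose probes may also match other transcripts.

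The soleus is a postural muscle of the hindlimb. Total RNA was taken from wild type mice (3 arrays) and from mice with the genotype Yin Yang 1 (YY1) knockout (4 arrays), all at 6 months of age and on a mixed background of C57Bl/6 and 129. YY1 is a zinc finger transcription factor. Neither the deleted stretch of the gene, nor the cells that lost it, nor any promoter driving a recombinase is stated in the sources used here. Nothing in the labels says that each array came from a separate animal, so each p-value reflects only how far these arrays scatter, which may in part be technical.

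Small leucine-rich proteoglycans are secreted core proteins built from leucine-rich repeats. They bind to collagen fibrils and help set fibril width and spacing, and several of them bind growth factors such as TGF-beta. Class I holds decorin, biglycan and asporin, class II holds lumican, fibromodulin, keratocan and PRELP, and class III holds osteoglycin. Decorin and biglycan carry chondroitin or dermatan sulfate chains, lumican, fibromodulin and keratocan can carry keratan sulfate, and asporin has a run of aspartate residues and lacks such chains. In muscle these proteins are made mainly by the fibroblasts of the connective tissue sheaths and by the cells of the tendon. Since whole muscle was measured, a change in the number of cells of a type and a change in RNA per cell cannot be told apart.

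Several of the genes lie side by side in the mouse genome. In the RefSeq gene table of the GRCm38.p6 assembly, Dcn, Lum and Kera followed each other on chromosome 10, with Epyc as the next gene. Aspn, Omd and Ogn followed each other on chromosome 13, and Prelp and Fmod were neighbours on chromosome 1. Bgn lies on chromosome X, Scx on chromosome 15 and Dpt on chromosome 1. Within these rows the calls differed: on the log2 scale Aspn rose by 2.15 while Ogn, on the other side of Omd, at 0.06, did not pass the test, and Kera fell by 0.75 while Dcn and Lum did not pass.

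The promoters of 4 genes are shown because they hold the extremes of the measured changes: Aspn, with the largest rise of the 10, Ogn, from the same row of genes, with the smallest change, Bgn, with the second largest rise, and Kera, the gene that fell. RefSeq windows from 250 bases before to 50 bases after the start of the gene were matched for 7 of the 10 genes (Bgn, Fmod, Kera, Ogn, Aspn, Prelp and Dpt). Each is written from 5′ to 3′ on the strand of the gene, in GRCm38.p6, with every E-box in capitals. An E-box has the letters CANNTG, which read alike on both strands, and is the kind of element that basic helix-loop-helix factors such as Scx bind.
Aspn, chr13:49544193-49544492, plus strand: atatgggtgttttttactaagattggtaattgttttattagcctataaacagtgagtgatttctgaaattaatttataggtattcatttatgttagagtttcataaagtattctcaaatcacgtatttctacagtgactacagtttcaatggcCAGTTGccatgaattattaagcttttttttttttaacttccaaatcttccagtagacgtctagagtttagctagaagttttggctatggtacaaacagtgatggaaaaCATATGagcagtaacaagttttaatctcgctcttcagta
Ogn, chr13:49607765-49608064, plus strand: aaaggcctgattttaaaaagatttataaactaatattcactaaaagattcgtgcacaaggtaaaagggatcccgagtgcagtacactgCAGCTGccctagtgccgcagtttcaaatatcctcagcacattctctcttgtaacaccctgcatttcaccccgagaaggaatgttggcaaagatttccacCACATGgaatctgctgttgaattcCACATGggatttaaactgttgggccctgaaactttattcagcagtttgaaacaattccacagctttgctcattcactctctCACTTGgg
Bgn, chrX:73483351-73483650, plus strand: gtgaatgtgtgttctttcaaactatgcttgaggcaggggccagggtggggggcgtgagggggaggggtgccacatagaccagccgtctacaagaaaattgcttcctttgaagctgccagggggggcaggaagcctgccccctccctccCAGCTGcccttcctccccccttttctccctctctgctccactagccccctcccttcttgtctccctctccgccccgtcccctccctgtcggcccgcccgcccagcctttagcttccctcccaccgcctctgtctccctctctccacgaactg
Kera, chr10:97606955-97607254, plus strand: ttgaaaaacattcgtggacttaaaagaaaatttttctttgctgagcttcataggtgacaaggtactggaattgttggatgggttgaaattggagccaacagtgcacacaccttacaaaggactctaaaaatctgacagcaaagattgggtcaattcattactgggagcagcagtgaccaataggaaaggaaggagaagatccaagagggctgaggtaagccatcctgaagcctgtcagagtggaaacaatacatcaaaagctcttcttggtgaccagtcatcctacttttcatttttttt

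The window of Aspn was low in G and C bases (31.0%) and that of Bgn was high (63.7%), with Ogn at 42.3% and Kera at 41.0%. E-box letters occurred 2 times in the Aspn window, 4 times in Ogn, 1 time in Bgn and 0 times in Kera. In the windows not printed here they occurred 7 times in Dpt and 1 time each in Fmod and Prelp. Of 32851 RefSeq promoter windows of the same length, 72.3% held the letters. The core letters of the YY1 motif, CCATNTT, searched on both strands, occurred in 0 of the 7 windows and in 16.1% of all windows, so no overlap between the motifs arose. A match describes the letters only, and a window without a match says only that these letters are not in it.

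Intensities were taken to log2(value + 1), and all levels and changes below are on this scale, as knockout minus wild type. Each of 22626 probe sets was tested with limma, a linear model that shares the estimate of spread across probe sets, with Benjamini-Hochberg adjustment over all of them and a threshold of 0.05. Yy1 itself was measured by 4 probe sets. The brightest lay at 9.32, 9.20 and 9.62 on the wild type arrays and at 8.39, 8.24, 8.48 and 8.29 on the knockout arrays, which is 49.2% of the wild type intensity (change of -1.02, SE 0.11, adjusted p = 0.000271). The groups did not overlap. The other probe sets were at 30.7%, 58.8% and 95.9% of wild type, and the last of these did not pass (adjusted p = 0.711). Of 12 skeletal muscle fibre genes, the mean levels lay between 14.46 and 15.60, near the top of a range of 3.63 to 15.63 over all probe sets. The changes had a median of 0.01 over all probe sets, and scaling the arrays in other ways moved that median by less than 0.1. No array lay apart from its group: correlations were at least 0.997 within wild type and 0.996 within knockout, and at most 0.989 between the genotypes.

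Of the 20 probe sets, 11 were higher in the knockout, 1 was lower and 8 did not pass. Over all probe sets tested, 14.3% were higher and 14.3% lower. Knockout and wild type values lay apart in 11 of the 20, against 36.4% of all probe sets. With the probe set of highest mean standing for each gene, 6 of the 10 genes were higher (Aspn, Bgn, Scx, Prelp, Fmod and Dpt), 1 was lower (Kera) and 3 did not pass (Dcn, Lum and Ogn). The corresponding shares of all genes were 16.3% higher and 15.5% lower. The median change was 0.47 over the 10 genes and 0.01 over all genes. The count of probe sets that rose was 7 without wild type array 1, without wild type array 2 or without knockout array 3, and 15 without knockout array 1. The count that fell was 0 without any of wild type arrays 1 and 2 and knockout arrays 2, 3 and 4.

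**Figure D1:**
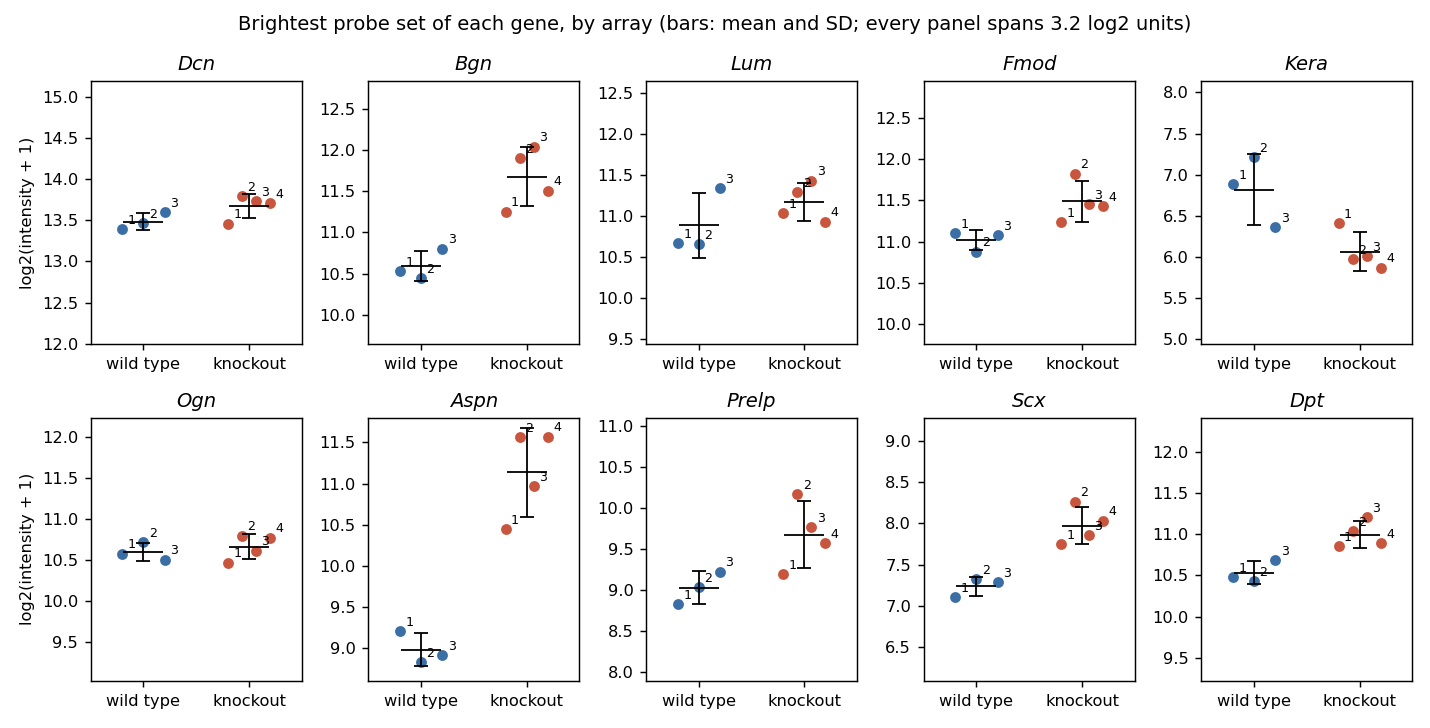
Level of each of the 10 genes by array, as log2(intensity + 1) of its brightest probe set, with wild type arrays in blue and knockout arrays in red, the array number beside each point, and bars for the mean and SD. Every panel spans the same height on the axis, and the groups lie apart for Bgn, Fmod, Aspn, Scx and Dpt.

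Aspn, the class I protein that binds collagen and TGF-beta, showed the largest change of the 10 genes. On the wild type arrays its brightest probe set (1416652_at) lay at 9.20, 8.83 and 8.91. On the knockout arrays it lay at 10.45, 11.56, 10.96 and 11.57, so that all 4 were above all 3 wild type values. Knockout arrays 2 and 4 were the highest and array 1 was the lowest. The change was 2.15 (SE 0.26, 95% interval 1.55 to 2.75, adjusted p = 0.000589), and the exact two-sided permutation test over the 35 ways of dividing the arrays gave p = 0.0286, the smallest it can give. The other probe set (1448421_s_at) was at 8.87, 8.52 and 8.66 on the wild type arrays and at 9.995, 10.59, 10.06 and 11.20 on the knockout arrays. Its change was 1.78 (SE 0.27, adjusted p = 0.00165), also with no overlap. Both kept their call when any 1 array was left out.

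Bgn, the class I protein closest to decorin, was higher by all 3 of its probe sets. The brightest (1416405_at) lay at 10.53, 10.44 and 10.80 on the wild type arrays and at 11.25, 11.90, 12.04 and 11.51 on the knockout arrays. The groups did not overlap, and the first knockout array was again the lowest of its group. The change was 1.08 (SE 0.18, 95% interval 0.66 to 1.51, adjusted p = 0.00293, exact permutation p = 0.0286). Probe set 1448323_a_at rose by 1.07 (SE 0.18, adjusted p = 0.00308), from 9.82, 9.76 and 10.11 to 10.53, 11.17, 11.32 and 10.81. Probe set 1437889_x_at rose by 0.84 (SE 0.17, adjusted p = 0.00622), from 9.90, 9.86 and 10.10 to 10.42, 11.05, 11.12 and 10.61. None of the 3 lost its call when any 1 array was left out.

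Dcn, the decorin gene, had levels of 13.39, 13.47 and 13.60 on the wild type arrays and of 13.46, 13.80, 13.74 and 13.71 on the knockout arrays. The first knockout array lay within the wild type range, and the other 3 lay above it. The change was 0.19 (SE 0.09, 95% interval -0.02 to 0.40) and did not pass (adjusted p = 0.157, exact permutation p = 0.143). Without knockout array 1 the change was 0.26 and passed (adjusted p = 0.029). The interval of the fold change ran from 0.988 to 1.32, which does not reach the 2.12-fold change of Bgn.

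The difference between related genes was tested within arrays, by subtracting the log2 level of a gene from that of its partner on each array and comparing the knockout with the wild type arrays by an exact two-sided permutation test. The 5 pairs were Bgn with Dcn, Fmod with Lum, Prelp with Fmod, Kera with Lum and Ogn with Aspn. Set to a wild type mean of 0, the Bgn minus Dcn difference was 0.69, 1.00, 1.20 and 0.69 on the knockout arrays and between -0.13 and 0.10 on the wild type arrays. The groups did not overlap, and the change of Bgn exceeded that of Dcn by 0.89 (SD 0.25 over the 4 knockout arrays; p = 0.0286, the smallest the exact test can give, and 0.0714 after adjustment over the 5 pairs). The Ogn minus Aspn difference was -1.60, -2.38, -1.97 and -2.41 on the knockout arrays and between -0.24 and 0.27 on the wild type arrays, a difference of change of -2.09 (SD 0.39, exact p = 0.0286, adjusted 0.0714). With 5 pairs, neither of these could have passed the threshold of 0.05 unless more of the pairs had reached the smallest p.

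**Figure D2:**
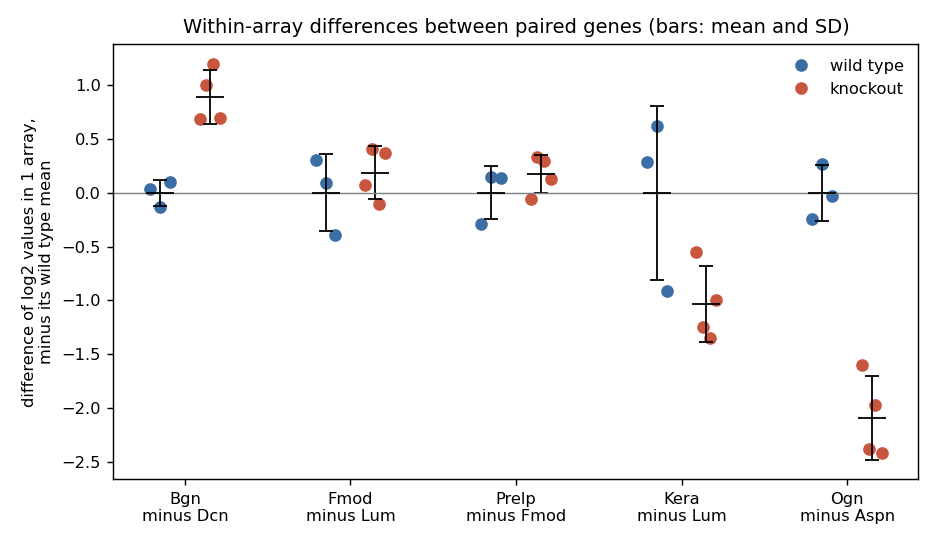
Within-array difference of the log2 levels of each of the 5 pairs, set to a wild type mean of 0, with a point per array and bars for the mean and SD of each genotype. The groups lie apart for Bgn minus Dcn and for Ogn minus Aspn and overlap for the other 3 pairs.

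Ogn, the class III member and in a row with Omd and Aspn on chromosome 13, showed no change that passed. Its brightest probe set (1419663_at) lay at 10.58, 10.72 and 10.50 on the wild type arrays and at 10.47, 10.79, 10.61 and 10.77 on the knockout arrays, with the groups mixed. The change was 0.06 (SE 0.09, 95% interval -0.15 to 0.28, adjusted p = 0.658). Probe set 1419662_at gave 0.01 (SE 0.08, 95% interval -0.18 to 0.20, adjusted p = 0.95). The upper ends of both intervals lie below the lower end of 1.16 for the dimmer Aspn probe set. Neither passed in any of the 7 fits that left out an array.

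Among the class II genes, Fmod (fibromodulin, which takes part in collagen fibril assembly and cross-linking in tendon) was higher by a small amount. Its brightest probe set (1456084_x_at) lay at 11.10, 10.88 and 11.07 on the wild type arrays and at 11.24, 11.83, 11.46 and 11.43 on the knockout arrays, with no overlap. The change was 0.47 (SE 0.13, 95% interval 0.17 to 0.77, adjusted p = 0.0269, exact permutation p = 0.0571). All 6 Fmod probe sets had positive changes, from 0.35 to 0.53, and 3 of them passed. The other sets that passed were 1438966_x_at (0.53, SE 0.15, adjusted p = 0.0282) and 1437685_x_at (0.44, SE 0.13, adjusted p = 0.0369). Probe sets 1415939_at (0.42, adjusted p = 0.0636), 1437718_x_at (0.42, adjusted p = 0.0947) and 1437324_x_at (0.35, adjusted p = 0.118) did not. In all 6 sets the second knockout array was the highest and the first was the lowest of the knockout arrays.

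The brightest set lost its call without wild type array 1, 2 or 3 (adjusted p = 0.057, 0.107 and 0.0665) and without knockout array 3 or 4 (0.0553 and 0.0505). Set 1438966_x_at lost it without wild type array 1, 2 or 3 or knockout array 3 (0.0774, 0.103, 0.0713 and 0.0641). Set 1437685_x_at kept it only without knockout array 1 (0.00841), and its adjusted p otherwise lay between 0.0515 and 0.112. Without knockout array 1, all 6 Fmod sets passed.

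Prelp, whose product binds heparin and collagen and anchors basement membranes, lay at 8.83, 9.03 and 9.23 on the wild type arrays and at 9.19, 10.17, 9.76 and 9.57 on the knockout arrays (1416321_s_at). The first knockout array fell within the wild type range. The change was 0.64 (SE 0.21, 95% interval 0.17 to 1.11) with an adjusted p = 0.0466, close to the threshold, and an exact permutation p = 0.0857. The call was lost without any of wild type arrays 1, 2 and 3 (adjusted p = 0.159, 0.122 and 0.0717) and knockout arrays 2, 3 and 4 (0.0739, 0.104 and 0.0752). It was also lost with 16 in place of 1 added to the values (0.0561) and with the mean of the Prelp probe sets (0.0535). The other set (1416322_at) had a change of 0.24 (SE 0.11, adjusted p = 0.144). Prelp and its neighbour Fmod differed in their change by 0.17 (exact p = 0.371, adjusted 0.457).

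Lum (lumican, which limits the width of collagen fibrils) lay at 10.67, 10.65 and 11.34 on the wild type arrays and at 11.03, 11.29, 11.43 and 10.93 on the knockout arrays. Wild type array 3 stood above the other wild type arrays and within the knockout range. The change was 0.28 (SE 0.19, 95% interval -0.14 to 0.71) and did not pass (adjusted p = 0.301, exact permutation p = 0.343). Without wild type array 3 it was 0.51 (adjusted p = 0.0425). Fmod and Lum differed in their change by 0.19 (exact p = 0.457, adjusted 0.457).

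Kera (keratocan, best known from the cornea) was the gene that fell. It lay at 6.88, 7.21 and 6.36 on the wild type arrays and at 6.41, 5.97, 6.01 and 5.87 on the knockout arrays. Knockout array 1 lay just above wild type array 3, so that the groups overlapped. The change was -0.75 (SE 0.20, 95% interval -1.21 to -0.30, 1.68-fold lower, adjusted p = 0.0225), with an exact permutation p = 0.0857. The call was lost without wild type array 1 or 2 (adjusted p = 0.0793 and 0.0827) and without knockout array 2, 3 or 4 (0.0614, 0.0569 and 0.059). Its signal was weak: the knockout mean of 6.07 and the wild type mean of 6.82 both lay below 7.16, the median over all probe sets. Against its neighbour Lum, the change of Kera was lower by 1.03 (knockout arrays at -0.55, -1.24, -1.35 and -0.99, wild type arrays at 0.28, 0.63 and -0.91; exact p = 0.0857, adjusted 0.143).

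**Figure D3:**
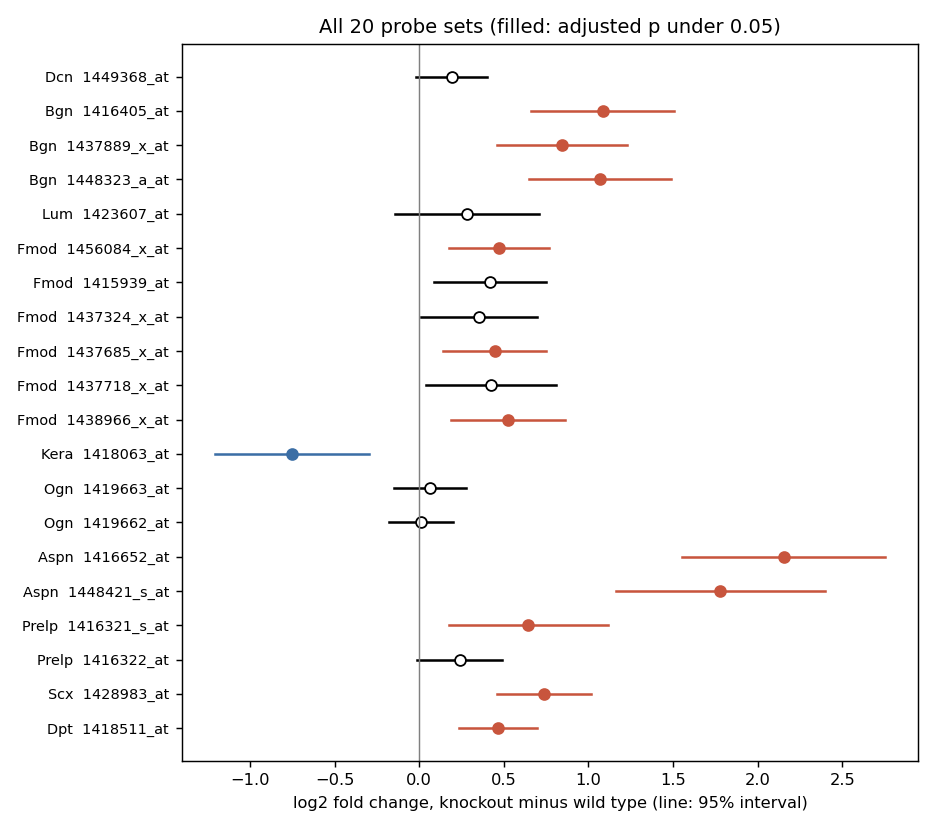
Log2 fold change of all 20 probe sets with 95% intervals, knockout minus wild type, filled where the adjusted p is under 0.05 (red higher, blue lower). The Aspn sets lie farthest to the right, the 3 Bgn sets between 0.84 and 1.08, and the Fmod sets between 0.35 and 0.53.

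Scx (scleraxis, a basic helix-loop-helix factor that marks tendon progenitors and drives tendon matrix genes) lay at 7.11, 7.32 and 7.28 on the wild type arrays and at 7.75, 8.26, 7.86 and 8.03 on the knockout arrays. The groups did not overlap. The change was 0.74 (SE 0.12, 95% interval 0.46 to 1.02, adjusted p = 0.00242, exact permutation p = 0.0286). Dpt (dermatopontin) lay at 10.48, 10.43 and 10.69 on the wild type arrays and at 10.85, 11.04, 11.21 and 10.89 on the knockout arrays, again with no overlap. Its change was 0.46 (SE 0.10, 95% interval 0.23 to 0.70, adjusted p = 0.00933, exact permutation p = 0.0286). Both calls held in all 7 fits that left out an array, with adjusted p at most 0.0145 for Scx and 0.0456 for Dpt.

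The knockout arrays were not alike in these genes. Knockout array 1 was the lowest of the 4 in 18 of the 20 probe sets, and in 11 of the 11 that rose. Over all 3240 probe sets that rose, it was the lowest in 44.8%. Knockout array 2 was the highest in 11 of the 20, called or not. Over the 3240 that rose it was the highest in 44.2%, a share over a different kind of set. The median shift of the 10 genes from the wild type mean was 0.19, 0.66, 0.58 and 0.39 on knockout arrays 1 to 4. Over the 11 member probe sets that rose it was 0.47, 1.09, 0.73 and 0.66, and over all 3240 probe sets that rose it was 0.37, 0.48, 0.42 and 0.41. In the brightest Yy1 set the knockout arrays lay between 8.24 and 8.48, with array 1 at 8.39. In the Yy1 set at 30.7% of wild type, array 1 was the highest knockout array, at 8.41 against 7.83, 7.83 and 8.10. Array 1 was also the highest in the set at 58.8%, at 6.19 against 5.79, 6.16 and 6.05. In the set at 95.9%, which did not pass, array 1 was the lowest, at 5.07 against 5.10, 5.36 and 5.26. Whether the Yy1 level had a part in the order of the knockout arrays was not tested.

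**Figure D4:**
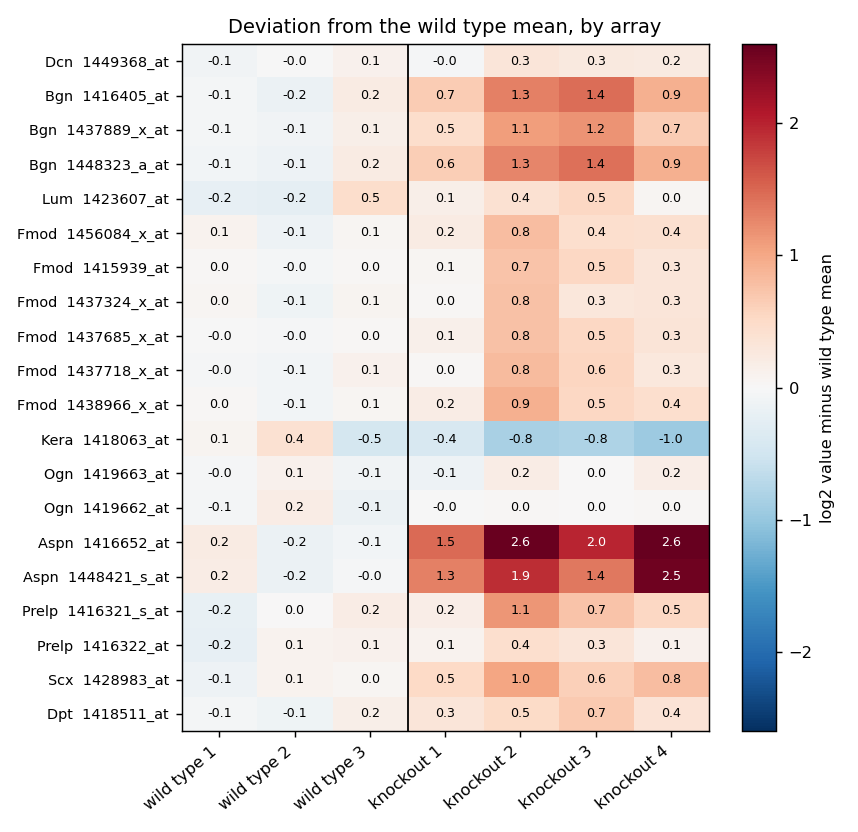
Deviation of each of the 20 probe sets from its wild type mean on each of the 7 arrays, in log2 units, red above and blue below. The first knockout array is the palest of its group in most sets, and Kera is the gene that turns blue.

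The genes with the most similar profile were sought for the 3 members with the largest change, as the smallest root mean square difference over the 7 arrays after each profile was centred on its mean, among genes brighter than the median. For Aspn these were Tnnt2 (0.137), which encodes cardiac troponin T and is expressed in immature muscle, S100a4 (0.173), a calcium-binding protein of fibroblasts and leukocytes, and Ncam1 (0.204), a cell adhesion molecule. Over 6195 genes the median difference from Aspn was 1.13, and the nearest of the other 9 members was Bgn at 0.641. Bgn was nearest to Ctsk (0.0386), the collagen-degrading protease cathepsin K, Apoe (0.0855), a lipid carrier, and Csf1r (0.0864), the macrophage growth factor receptor, against a median of 0.598. Kera was nearest to Miga2 (0.167), Kif21a (0.167) and Mrm3 (0.177), against a median of 0.479. These are descriptions over 7 arrays that share 1 contrast.

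Further genes of the same family gave no call. Of 10 other small leucine-rich repeat genes, 4 were measured by a probe set with 1 symbol (Omd, Epyc, Optc and Chad), 0 passed limma's test in either direction (at an unadjusted p under 0.05, 0 higher and 1 lower, Chad) and their median change was -0.06. Chad, which encodes the cartilage protein chondroadherin, was at 7.43 ± 0.24 (SD, n = 3) in wild type and 7.14 ± 0.07 (SD, n = 4) in knockout, a change of -0.29 (SE 0.11, adjusted p = 0.078). Optc (opticin) had a change of -0.07 (adjusted p = 0.477). Omd, between Aspn and Ogn on chromosome 13, had a change of -0.04 (adjusted p = 0.687). Epyc, next to Kera on chromosome 10, had a change of -0.01 (adjusted p = 0.975). The signals of Optc, Omd and Epyc were weak, with wild type means of 5.09, 6.79 and 4.31 and knockout means of 5.02, 6.74 and 4.31. All of these lay below 7.16, the median over all probe sets. Signal over background was not measured, so the lack of a call does not show that these genes were unchanged.

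The collagens to which these proteins bind were higher in part. Of 14 fibrillar and fibril-associated collagen genes measured, 7 rose, 1 fell and 6 did not pass, with a median change of 0.39. Col3a1, the collagen of fine reticular fibrils, rose by 1.27 (SE 0.23, adjusted p = 0.00373), and Col5a2, a regulator of fibril width, by 1.65 (SE 0.24, adjusted p = 0.00136). The type I collagen genes Col1a1 and Col1a2 rose by 0.96 (SE 0.16, adjusted p = 0.00265) and 0.84 (SE 0.21, adjusted p = 0.0186), and a dimmer probe set of each gave 0.47 and 1.07. Col11a2, a collagen of cartilage, fell by 0.34 (SE 0.11, adjusted p = 0.0461). The count that rose was 4, 3 and 4 without wild type array 1, 2 and 3 and 4 without knockout array 2, and the Col1a2 call was among those lost in these 4 fits (adjusted p at most 0.0688). Col11a2 lost its call without any wild type array or knockout array 1 or 4 (at most 0.161).

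Among 18 genes of collagen processing and cross-linking, 6 rose, 1 fell and 11 did not pass, with a median of 0.20. Lox, the lysyl oxidase that starts cross-links, rose by 1.30 (SE 0.20, adjusted p = 0.00175), although 2 other Lox probe sets gave 0.00 and 0.93. Plod2, the lysyl hydroxylase of collagen telopeptides, rose by 1.09 (SE 0.11, adjusted p = 0.000234; 0.37 by a dimmer set), and Plod3 by 0.38 (SE 0.07, adjusted p = 0.0042). P4ha2, a prolyl hydroxylase subunit, fell by 0.63 (SE 0.10, adjusted p = 0.00239).

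The enzymes that build the sugar chains were mostly not past the threshold, as were 8452 of all 12393 genes. Of 14 genes for chondroitin and dermatan sulfate chains, 3 rose, 0 fell (0 also at an unadjusted p under 0.05) and 11 did not pass, with a median of 0.05. Chst14, the dermatan 4-O-sulfotransferase, rose by 0.50 (SE 0.10, adjusted p = 0.00734), B3galt6, an enzyme of the linker to the core protein, by 0.38 (adjusted p = 0.0101; 0.16 by a dimmer set), and Chpf2, a chondroitin polymerizing factor, by 0.24 (adjusted p = 0.0228). Of 6 genes for keratan sulfate chains, 2 rose (B3gnt2 by 0.61, SE 0.13, adjusted p = 0.00849, with 0.21 by a dimmer set, and B4galt1 by 0.31, adjusted p = 0.012), 1 fell (B4galt4, -0.28, adjusted p = 0.0429) and 3 did not pass. Chpf2 lost its call without wild type array 1 or 3 or knockout array 4 (adjusted p at most 0.0806), and B4galt1 without wild type array 2 (0.0524). B4galt4 kept its call only without wild type array 1 or knockout array 3.

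Of 19 other proteoglycan core protein genes, 4 rose, 4 fell and 11 did not pass, with a median of -0.05. Prg4, the lubricin of tendon and joint surfaces, rose by 1.35 (SE 0.29, adjusted p = 0.00837), Vcan, the large chondroitin sulfate proteoglycan versican, by 0.96 (SE 0.25, adjusted p = 0.0207; 0.51 and 0.55 by dimmer sets), and Gpc1, a cell surface glypican, by 0.70 (SE 0.07, adjusted p = 0.000312). Srgn, the serglycin of blood and endothelial cell granules, fell by 0.82 (SE 0.08, adjusted p = 0.000249), with Gpc3 (-0.62, adjusted p = 0.0103) and Sdc4 (-0.31, adjusted p = 0.0112). Leaving out the first or the second wild type array, or the second knockout array, brought the count that rose to 2, and leaving out the second wild type array brought the count that fell to 2. Vcan lost its call without any wild type array or knockout array 2 (adjusted p at most 0.0824), and Gpc3 without wild type array 2 (0.0506).

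TGF-beta, which several of these proteoglycans bind, was represented by 16 measured genes for ligands, binding proteins, receptors, Smads and targets. Of these, 9 rose, 0 fell (1 at an unadjusted p under 0.05) and 7 did not pass, with a median of 0.26. The targets Ccn2 (1.20, SE 0.08, adjusted p = 7.59e-05) and Tgfbi (0.93, SE 0.12, adjusted p = 0.000727) and the ligand Tgfb2 (0.75, SE 0.10, adjusted p = 0.000737) had the smallest p. Tgfb1 had a change of 0.28 (SE 0.08, adjusted p = 0.0369) that passed in only 1 of the 7 fits without an array, the fit without knockout array 1 (adjusted p at most 0.118 in the others). Of 13 genes for cell surface receptors that these proteins bind, 6 rose, 1 fell and 6 did not pass, with a median of 0.30. The biglycan receptors Tlr2 and Tlr4 rose by 0.85 (SE 0.14, adjusted p = 0.00225) and 0.66 (adjusted p = 0.0014), and their partner Cd14 by 0.54 (adjusted p = 0.00457). Kdr, the VEGF receptor that decorin can bind and that endothelial cells make, fell by 1.28 (SE 0.12, adjusted p = 0.000164). Without wild type array 2 the count of receptor genes that rose was 3.

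**Figure D5:**
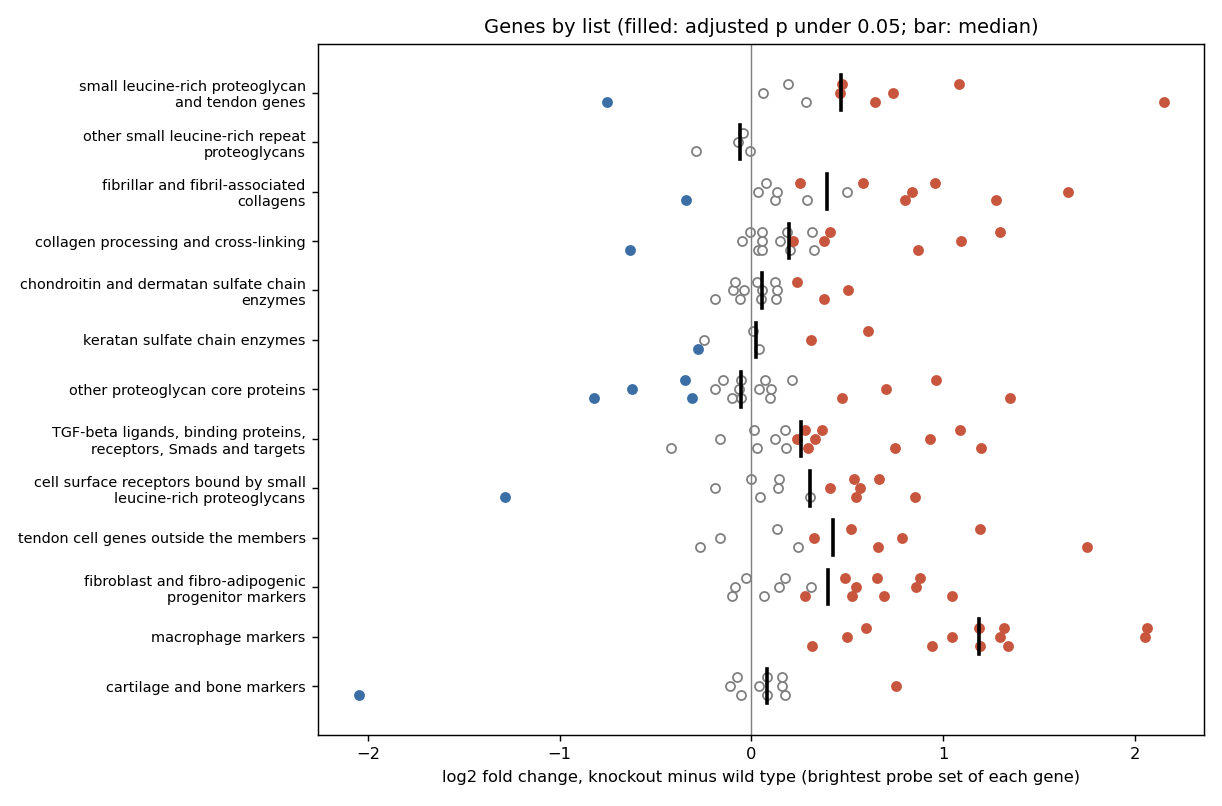
Log2 fold change of the genes of each list, by the brightest probe set, filled where the adjusted p is under 0.05 (red higher, blue lower), with a bar at the median of each list. The 10 genes have a median of 0.47, the macrophage markers of 1.19 and the cartilage and bone markers of 0.08.

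Tendon cell genes outside the 10 were higher in part. Of 10 measured, 6 rose, 0 fell (0 also at an unadjusted p under 0.05) and 4 did not pass, with a median of 0.42, and the summed intensity of the list was 5591 to 6207 on the wild type arrays and 7584 to 11604 on the knockout arrays. Comp, a pentameric matrix protein, rose by 1.75 (SE 0.15, adjusted p = 0.000149), Thbs4, thrombospondin 4, by 1.19 (SE 0.20, adjusted p = 0.00301), and Tnc, tenascin C, by 0.79 (SE 0.15, adjusted p = 0.00512). Thbs4 had the highest level of the list (11.10 in wild type and 12.30 in knockout) and so weighed most in the summed intensity. Tnmd, the membrane protein tenomodulin that marks mature tendon cells, was at 9.98 ± 0.20 (SD, n = 3) in wild type and 10.11 ± 0.17 (SD, n = 4) in knockout (change of 0.13, SE 0.12, adjusted p = 0.445). Mkx, the tendon factor Mohawk, was not analysed here. Without wild type array 2 the count that rose was 3.

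Markers of other cells moved as well, and their part in the changes of the 10 genes was not tested. Of 16 fibroblast and fibro-adipogenic progenitor markers, 9 rose and 0 fell, also at an unadjusted p under 0.05 (median 0.40, summed intensity 19052 to 22470 in wild type and 25052 to 32348 in knockout), and 3 rose without wild type array 1 or 2. All 12 macrophage markers rose (median 1.19, summed intensity 3971 to 4749 and 9241 to 14758), among them Ctss by 2.06, Cd68 by 2.05 and Mrc1 by 1.32, and 8 of them passed without wild type array 1. Endothelial markers went the other way, with 9 of 10 lower (median -0.91, summed intensity 5415 to 5730 and 2839 to 3195). Of 8 smooth muscle and pericyte markers, 5 were lower and 1 was higher (Cspg4, 0.73, SE 0.10), with a median of -0.45. Of 11 cartilage and bone markers 1 rose (Sox9, 0.75) and 1 fell (Alpl, -2.05), and their summed intensity was 783 to 859 in wild type and 652 to 732 in knockout. Alpl had the highest wild type level of this list (8.23, and 6.18 in knockout) and so weighed most in the wild type sum. The lower sum does not describe the list as a group, whose median change was 0.08. The wild type levels of Col2a1 (5.31) and Dmp1 (4.09), and of Acan (4.92) from the list of other core proteins, lay near the low end of the range of the arrays. Those of Sox9 (7.162), Sp7 (7.164) and Alpl (8.23) lay above 7.157, the median over all probe sets. The other markers of the cartilage and bone list lay below it. Sox9 lost its call without wild type array 2 or 3 (adjusted p at most 0.0782).

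By knockout array 1 to 4, the median shift from the wild type mean was 0.27, 0.45, 0.52 and 0.29 for the fibroblast markers, 0.22, 0.63, 0.44 and 0.55 for the tendon genes, 0.14, 0.66, 0.80 and 0.14 for the collagens and 0.93, 1.23, 1.63 and 0.97 for the macrophage markers. The first knockout array was the lowest of the 4 in each of these lists. Adipocyte markers (3 of 6 lower, 1 higher) had a median of -0.77, and 1 of 4 Schwann cell markers was lower. As a measure of RNA integrity, the 3′ minus 5′ difference of the Actb control probe sets was 0.073 to 0.102 on the wild type arrays and 0.0928 to 0.215 on the knockout arrays, and that of Gapdh was -0.0635 to -0.0364 and -0.0188 to 0.051. The part of these differences in the results was not tested.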

How the data were processed

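The authors deposited 1 intensity per probe set and array. They used RMA, which subtracts background, brings the arrays to a common distribution and reduces each probe set to 1 value, per the submitters' processing notes, which name no version. These deposited intensity values were linear and were taken to log2(value + 1). Biotin-labelled cRNA was made from Trizol-extracted RNA, per the labels. Of 22690 probe sets, 64 controls were left out; 20380 of the others had 1 gene symbol, 691 several and 1555 none. The table held 0 columns of samples outside the series. Scan dates were not used here. Precision is limited by the number of arrays. At most 1819 probe sets had equal values in any pair of arrays, so no array was a duplicate.

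Groups came from the genotype label. Probe sets were fitted with the two-sided limma test (version 3.58.1, lmFit then eBayes, under R 4.3.3) on the 3 wild type and 4 knockout arrays, with no filter on dim probe sets. Exact permutation tests were run in Python 3.11.15. For lists, the probe set with the highest mean stood for a gene. The scripts were tested on simulated data. Array numbers shared by the genotypes were checked for pairing (deviations correlated at 0.0479, -0.0976 and 0.0111) and did not pair the arrays. Alternatives changed the pseudocount (16), scaling, filter, probe set rule and variance model, added a replicate block or left out 1 array.

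The members and the gene lists were chosen with earlier results of these data known. Named beside them, by rule, are Yy1, Col1a1, Col1a2, Col3a1, Tgfb1, Tnmd, Mkx, up to 3 genes per list and direction with the smallest p, and the 3 nearest profiles of 3 members. Omd, Epyc, Col2a1, Acan, Dmp1 and Sp7 were named after their values were seen.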

Additional observations from a re-analysis of the deposited data

How the results depend on the processing

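Of 278 comparisons of a single member probe set with its value under another setting, 240 kept their side of the threshold, 30 lost their call, 8 gained 1, and 0 turned sign while called. The uncalled change of Ogn 1419662_at did turn sign: it lay between -0.06 and 0.11 when 1 array was left out. Leaving out 1 array at a time, the count of member probe sets that rose lay between 7 and 15, the count that fell between 0 and 1, the count of member genes that rose between 4 and 7 and the count that fell between 0 and 1. With only the probe sets brighter than the median, 0 member probe sets and 0 member genes fell, because Kera was then not tested. With a replicate block, 10 member probe sets rose and 1 fell, and of the member genes 5 rose and 1 fell: Fmod sets 1456084_x_at and 1438966_x_at lost their call (adjusted p = 0.0766 and 0.0539) and Prelp 1416322_at gained 1 (0.0442), but array numbers did not pair the arrays. Fmod 1415939_at passed with arrays centred on their median (adjusted p = 0.0462) and with the filter (0.0441). The difference of change of Kera minus Lum lay between -1.49 and -0.72 when 1 array was left out, with -1.49 without wild type array 3. Counts over all probe sets, of 3240 higher and 3237 lower, lay between 2391 and 3101 and between 2487 and 3123 without 1 array. Counts of genes, by the brightest or the mean probe set, were not set against counts of probe sets. The mean level of Kera in each genotype lies below the median of all probe sets, and signal over background was not measured here.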
